A study of Mus musculus with 11 samples.

Results

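Signals of 40 named genes that drive DNA replication and cell division were followed in the outer coat (adventitia) of the mouse abdominal aorta. The genes were chosen by name, not by a cut on a measured value, but with earlier results of these data known. Each was read through the probe sets (groups of short probes on an Affymetrix array) that the platform annotation gives to that 1 gene symbol. Of the 40 genes, 37 had such a probe set, among 12393 genes so represented in the whole series, while Ccnb1, Cdca8 and Cdkn3 had none and have no value here. Of the 37 measured genes, 14 act in DNA synthesis (S phase) and 23 in the passage through G2 and mitosis.

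A total of 11 arrays were made from male mice aged 78 weeks on a chow diet. Of these, 4 came from Apoe-deficient mice (strain B6.129P2-Apoe<tm1Unc>/J, which lacks apolipoprotein E in every cell and develops atherosclerosis), and were dissected where the aorta had plaques and its outer coat held artery tertiary lymphoid organs (ATLOs, lymph node-like aggregates of lymphocytes beside a diseased artery). Another 4 were of adventitia of the same strain away from plaques, called outside-lesion here, and wild-type mice labelled C57BL, without the deletion, gave 3. The sample labels place the second group outside the lesion area of Apoe-deficient mice, whereas the design text of the series speaks of mice that had no lesions, so whether ATLO minus outside-lesion compares places within diseased aortas or mice with and without plaques is not settled. All tissue was captured from frozen sections with a laser. For the Apoe-deficient samples 200 sections of 10 micrometres were pooled into each sample, the aorta having been taken out together with its lymph nodes and fat, and RNA was amplified for 68 h. The wild-type RNA was extracted with another kit and amplified for 24 h, and the wild-type titles carry the letters PNS, which no label explains. Kit, amplification time and genotype therefore cannot be told apart in any comparison with wild type. The labels do not say whether the arrays of a group came from separate mice, and the p-values therefore cover only the spread seen between these samples, which may be technical.

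A dividing cell first loads the MCM helicase onto replication origins with the help of Cdc6, then raises its supply of deoxynucleotides and copies its DNA around the sliding clamp Pcna, driven by cyclin E and cyclin A with their kinases. It then condenses its chromosomes, builds a spindle and separates the copies under the control of Cdk1 with cyclin B, the Aurora and Polo kinases, and a ubiquitin ligase that uses Cdc20 and Ube2c. Transcription of the S phase genes is known to be timed by E2F factors, and that of many mitotic genes by complexes that bind the cell cycle homology region (CHR) and CCAAT boxes. In lymphoid tissue, B cells of germinal centres, activated T cells and plasmablasts are known for fast division.

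The start regions of 4 genes are shown because they are the 2 S phase and the 2 mitotic genes with the largest rise in ATLO adventitia that had an entry holding a searched motif. Sequences are from the RefSeq table of build GRCm38.p6 and run 5′ to 3′ on the gene's strand over the 250 bases before the start site. Capitals mark CCAAT or its reverse complement ATTGG, and TTTGAA (the CHR motif) or its reverse complement TTCAAA.
Rrm2 (chr12:24708004-24708253, plus strand): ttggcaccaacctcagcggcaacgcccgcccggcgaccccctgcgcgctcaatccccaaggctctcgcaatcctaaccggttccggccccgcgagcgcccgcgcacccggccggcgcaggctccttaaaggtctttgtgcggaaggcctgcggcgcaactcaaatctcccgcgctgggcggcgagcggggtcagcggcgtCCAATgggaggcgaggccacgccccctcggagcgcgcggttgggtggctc
Mcm3 (chr1:20820313-20820562, minus strand): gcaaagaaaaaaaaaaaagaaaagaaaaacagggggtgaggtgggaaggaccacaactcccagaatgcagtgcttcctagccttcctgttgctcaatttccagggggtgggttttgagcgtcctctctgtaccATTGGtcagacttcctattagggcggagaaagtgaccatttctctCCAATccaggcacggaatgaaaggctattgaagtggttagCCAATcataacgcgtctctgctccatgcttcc
Mki67 (chr7:135716380-135716629, minus strand): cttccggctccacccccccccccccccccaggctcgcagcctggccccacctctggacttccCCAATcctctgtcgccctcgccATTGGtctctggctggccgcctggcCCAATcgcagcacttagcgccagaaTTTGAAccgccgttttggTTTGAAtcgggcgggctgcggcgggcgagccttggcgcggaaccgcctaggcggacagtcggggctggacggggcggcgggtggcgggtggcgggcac
Top2a (chr11:99024190-99024439, minus strand): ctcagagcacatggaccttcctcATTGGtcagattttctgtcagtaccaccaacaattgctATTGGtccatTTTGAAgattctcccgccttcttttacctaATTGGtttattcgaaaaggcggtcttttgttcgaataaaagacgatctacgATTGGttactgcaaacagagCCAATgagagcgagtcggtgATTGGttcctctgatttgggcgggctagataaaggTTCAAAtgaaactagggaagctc
Both mitotic genes held CHR motifs, 2 in Mki67 and 2 in Top2a, beside 3 and 6 CCAAT boxes. Neither S phase gene held a CHR motif; Rrm2 had 1 CCAAT box, at 50 bases before its start, and Mcm3 had 3. Mcm3 also had 2 E2F motifs just past its start site, outside the printed stretch.

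Of the 40 genes, 33 had a window of 300 bases (250 before and 50 after the start) in that table. Motifs were searched on both strands, and none of the motifs contains another. An E2F motif (TTTGGCG or else TTTCCCG or else TTTGCCG or else TTTCGCG) lay in the windows of 9 of the 33 genes (27.3%), against 7.65% of 27025 genes in the table. The CHR motif TTTGAA lay in 18 of 33 (54.5%), against 20.2% of all genes, and CCAAT in 27 of 33 (81.8%), against 41.1%. The CHR motif was split by phase, with 17 of 21 G2 and mitotic genes and 1 of 12 S phase genes (Mcm2). The E2F motif was in 5 of 12 S phase genes (Cdc6, Mcm3, Mcm5, Mcm6 and Mcm7) and in 4 of 21 G2 and mitotic genes (Birc5, Cdca8, Cdk1 and Nusap1). These matches describe the letters and are no evidence of binding.

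The samples matched their genotype label in the targeted gene. Apoe had a signal of 86.9 to 150.2 on the ATLO arrays and 45.9 to 179.7 on the outside-lesion arrays, against 11969 to 13164 in wild type. B cell markers matched the ATLO label, with 6 of 6 tested markers higher in ATLO than in outside-lesion adventitia and a summed signal of 4481 to 16046 on ATLO arrays, 599 to 1836 on outside-lesion arrays and 714 to 5642 in wild type. Among 5 measured markers of germinal centre B cells, 3 were tested and 1 was higher. This was Gcsam, which read 102.5 to 129.8 in ATLO and 15.4 to 91.1 outside the lesion (log2 change 1.24, limma adjusted p = 0.0263). Its outside-lesion values lay under 108.4, the 40th percentile of all values, and its p-value is given only as a description. Bcl6 changed by 0.09 on the log2 scale (limma adjusted p = 0.897), and Fas was not called. Mybl1 was at or under the floor of 35.1 signal units on every array. RNA integrity varied between arrays: the signal ratio of the 3′ to the 5′ actin control, which is higher where RNA is more degraded, was 1.71 to 8.14 on ATLO arrays, 6.22 to 12.0 on outside-lesion arrays and 4.19 to 5.40 in wild type. Of the wild-type arrays, replicate 2 stood apart, as its Ms4a1 (CD20, a B cell surface protein) signal of 2394 against 196 and 118 on the other two shows. Changes against wild type named below are given with and without it.

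ATLO adventitia had higher signals of most cell cycle genes than outside-lesion adventitia of the same strain. To be tested, a gene needed a signal above the 40th percentile of the array on 3 or more arrays, which 30 of the 37 measured genes reached, and limma's p-values were adjusted over all 14988 tested probe sets. The filter favours genes that are high in ATLO, since 11 of the 30 reached it only through their ATLO arrays: Ccnb2, Ccne1, Cdk1, Cdc6, Birc5, Plk1, Nusap1, Tpx2, Mcm5, Tk1 and Ube2c. Their counts and p-values are descriptions and support nothing. Of the other 19 genes, 15 were higher in ATLO and 0 lower, where 18.3% of all 8627 genes that passed without the ATLO arrays were higher. In 14 of the 19 every ATLO array lay above every outside-lesion array, as in 17.9% of those 8627, and the median log2 change of the 19 was 1.06, against 0.08. Over all 30 tested genes, 23 were higher and 0 lower, where 19.8% of all 9045 tested genes were higher and 14.9% lower, and 23 did not overlap, as in 19.2%. The median log2 change of the 30 was 1.17, against 0.10 for all tested genes, and with no filter 19 of 37 were higher (10.8% of all probe sets). By phase, of the genes that passed without the ATLO arrays, 7 of 8 S phase genes rose, with a median log2 change of 1.03, and 8 of 11 G2 and mitotic genes, with a median of 1.06. Once the actin ratio of each array entered the fit as a covariate, 0 of the 30 were called. In bulk tissue, more cells of a dividing type and more RNA per cell cannot be told apart, nor can fewer cells and less RNA per cell.

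**Figure D1:**
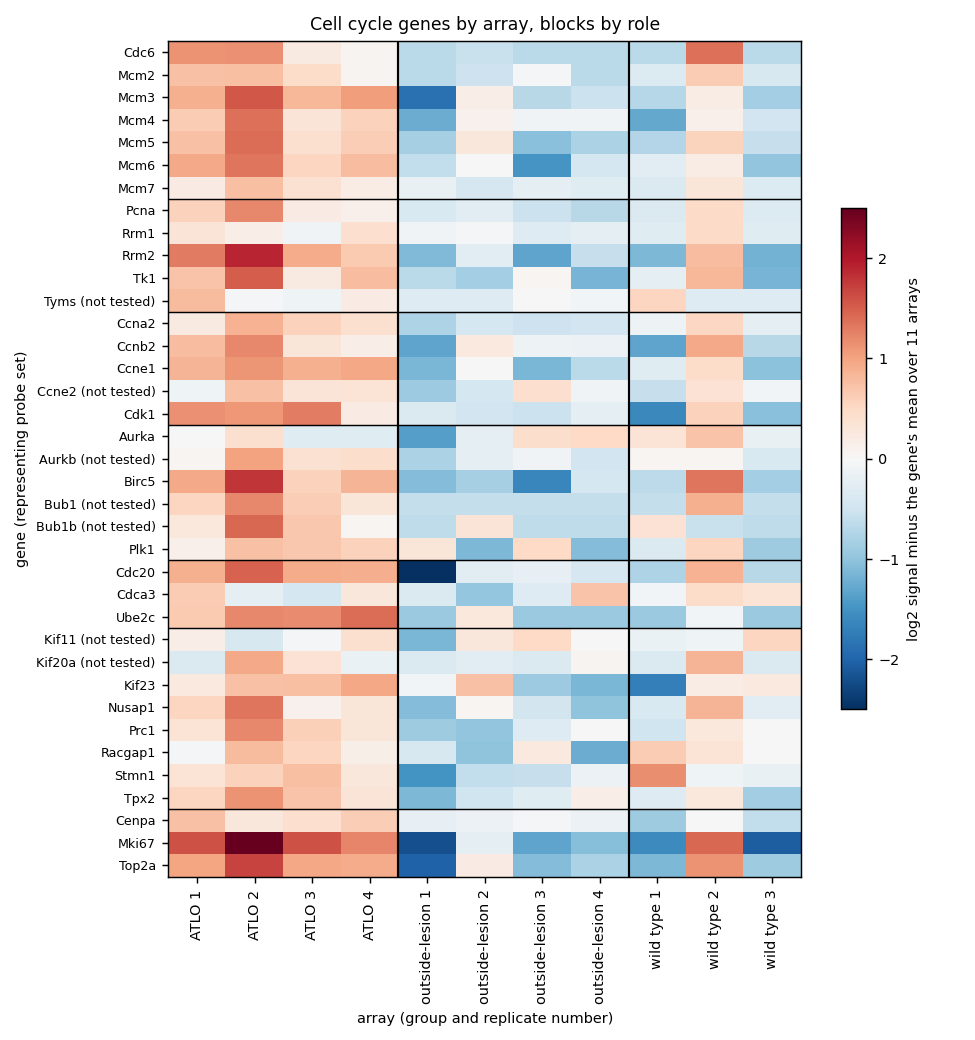
Log2 signal of 37 cell cycle genes on 11 arrays, each gene shown relative to its own mean over the arrays; red is above and blue below the mean, vertical lines separate ATLO, outside-lesion and wild-type arrays, and horizontal lines separate the role groups. Most rows are red on the ATLO arrays and blue on the outside-lesion arrays, ATLO 2 and wild type 2 are the reddest columns of their groups, and 7 rows were not tested.

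Origin licensing and helicase genes were mostly higher in ATLO. All 7 were tested, and of the 5 that passed without the ATLO arrays 5 rose and 5 had no overlap between the groups, against the shares of 18.3% and 17.9% above, by which the counts of the next role groups are also read. Mcm3, a helicase subunit, had a signal of 466, 743, 447 and 516 on the ATLO arrays, against 69.5, 282, 156 and 173 outside the lesion. Its lowest ATLO array lay well above its highest outside-lesion array, and the log2 change was 1.81 ± 0.37 (SE, n = 4 and 4, limma adjusted p = 0.00218), a 3.51-fold rise. Mcm6, another subunit, had 699, 911, 528 and 619.5 in ATLO, against 235, 364, 131 and 268, and changed by 1.53 ± 0.31 on the log2 scale (limma adjusted p = 0.00221). For both genes ATLO 2 was the highest array of all 11. Mcm7 changed least of the group, with 1462, 2156, 1667 and 1445 in ATLO against 1119, 959.6, 1096 and 1037 outside the lesion, a log2 change of 0.66 ± 0.18 (limma adjusted p = 0.0122). The other helicase subunits rose by log2 changes of 0.98 for Mcm2 and 1.06 for Mcm4. Mcm5, which reached the test only through ATLO arrays, had a log2 change of 1.38. Cdc6, which loads the helicase and reached the test in the same way, missed the threshold (log2 change 1.30, limma adjusted p = 0.0551) although its groups did not overlap. It read 59.2 to 125 in ATLO and 1.6 to 38.1 outside the lesion, where 3 of 4 arrays were under the floor, so that its log2 change is understated.

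Some helicase genes were read by several tested probe sets that gave different answers. For Mcm3, the further 3 sets gave log2 changes of 0.36, 1.89 and 1.18, of which 1.89 was called. For Mcm7, the further 3 sets gave 0.61, 0.21 and 0.23, none of them called. The second sets of Mcm2, Mcm4 and Mcm6 gave 1.43, 0.99 and 1.54 and were called like the first. In all, 10 of the 30 tested genes had several tested sets and 4 of the 10 had sets with different calls. Of 45 tested probe sets of the cell cycle genes 29 were higher and 0 lower. Of all 14988 tested probe sets 2688 were higher and 2089 lower. The representing sets of 11 of the 37 measured genes end in _s_at or _x_at, which marks probes that may also bind related transcripts.

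In the group of nucleotide supply and the sliding clamp, 2 of 3 genes that passed without the ATLO arrays rose. Rrm2, the subunit of ribonucleotide reductase that is made in S phase, had 658, 1002, 507 and 421 in ATLO against 125, 224, 107 and 181 outside the lesion. The groups were far apart, and the log2 change was 2.00 ± 0.42 (limma adjusted p = 0.00249), a 4.01-fold rise. A second set of Rrm2 gave 1.97, also called, and a further set 1.12, not called. Rrm1, the larger subunit of the same enzyme, had 445, 397, 332 and 475 in ATLO against 333, 349.5, 284 and 301. The Rrm1 arrays overlapped, and the log2 change of 0.37 ± 0.20 was not called (limma adjusted p = 0.178). Pcna, the clamp that holds DNA polymerase on its template, had 2227, 3459, 1728 and 1629 in ATLO against 1147, 1247, 1034 and 929, a log2 change of 0.995 ± 0.24 (limma adjusted p = 0.00704). Tk1, thymidine kinase of the salvage route, reached the test only through its ATLO arrays and had 129, 224, 91.9 and 134 in ATLO against 49.4, 43.4, 81.2 and 7.2. ATLO 3 lay only just above outside-lesion 3 for Tk1, and the log2 change was 1.47 ± 0.44 (limma adjusted p = 0.0223). Tyms, thymidylate synthase, was not tested and read 40.6 to 75.8 in ATLO and 23.7 to 43.5 outside the lesion.

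**Figure D2:**
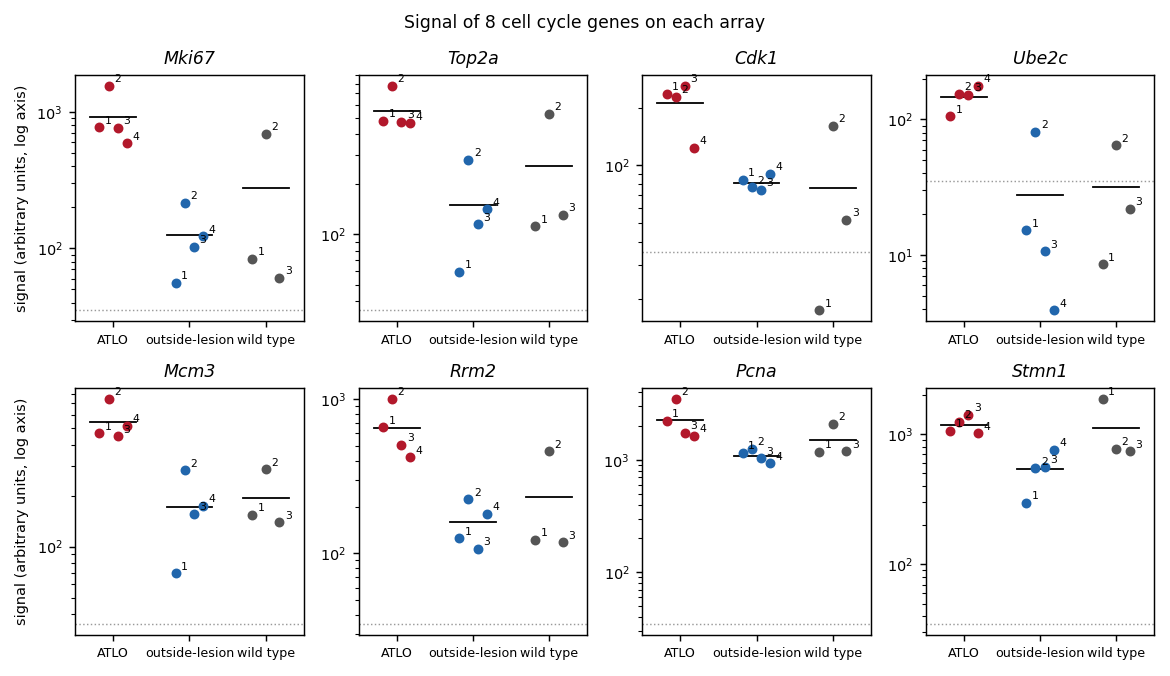
Signal (arbitrary units, log axis) of 8 cell cycle genes on the ATLO, outside-lesion and wild-type arrays; each point is an array with its replicate number, bars are group means and the dotted line is the floor of 35.1. The ATLO points lie above all outside-lesion points in the 8 genes, and wild type 2 is the highest wild-type array in all of them but Stmn1.

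Of the cyclins and Cdk1, 4 genes were tested, and all but Ccna2 reached the test only through their ATLO arrays. Cdk1, the kinase that starts mitosis, had 237, 228, 261 and 123 in ATLO against 83.9, 76.9, 74.4 and 90.5 outside the lesion. ATLO 4 was the lowest of its group but still above the outside-lesion arrays, and the log2 change was 1.33 ± 0.41 (limma adjusted p = 0.0251). Ccne1 (cyclin E1), which opens S phase, had 140.3, 168, 144 and 151 in ATLO against 16.5, 77.9, 23.0 and 48.4, a log2 change of 1.70 ± 0.37 (limma adjusted p = 0.00347). The ATLO arrays were tightly grouped for Ccne1, and 2 outside-lesion arrays were under the floor. Ccna2 (cyclin A2) rose by 1.06 on the log2 scale (limma adjusted p = 0.00279), and its second set by 1.69. Ccnb2 (cyclin B2), a partner of Cdk1, had 149, 202, 109 and 99.1 in ATLO against 1.8, 103, 80.2 and 79.3. ATLO 4 fell below outside-lesion 2 for Ccnb2, and the log2 change of 0.95 ± 0.48 was not called (limma adjusted p = 0.152). Ccne2 (cyclin E2) was not tested, with 60.6 to 109.8 in ATLO and 22.2 to 88.1 outside the lesion.

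Among mitotic kinases, checkpoint and passenger complex genes, 6 were measured and 3 tested, of which Aurka alone passed without the ATLO arrays. Birc5 (survivin), part of the chromosomal passenger complex, had 209, 372, 162 and 197 in ATLO against 50.8, 61.1, 30.9 and 79.5, without overlap, and its log2 change was 2.04 ± 0.46 (limma adjusted p = 0.0041). Aurka (Aurora A), which acts at spindle poles, had 91.2, 120.3, 74.5 and 73.8 in ATLO against 10.9, 78.6, 125 and 129 outside the lesion. The 2 highest outside-lesion arrays of Aurka lay above all ATLO arrays, the log2 change was 0.11 ± 0.41 (limma adjusted p = 0.861), and its sign turned under other settings. Plk1 (Polo-like kinase) had 84.0, 128, 123 and 115 in ATLO against 94.1, 30.4, 108 and 36.2. The outside-lesion arrays of Plk1 fell into a high and a low pair, and the log2 change of 0.89 ± 0.44 was not called (limma adjusted p = 0.147). Aurkb (Aurora B), Bub1 and Bub1b, which serve in the passenger complex and the spindle checkpoint, were not tested. Aurkb read 80.1 to 156 in ATLO and 44.6 to 73.1 outside the lesion, Bub1 65.1 to 121 and 2.2 to 29.6, and Bub1b 56.8 to 148 and 12.4 to 68.0. Bub1 was under the floor on all 4 outside-lesion arrays, and Aurkb and Bub1 did not overlap.

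Among ubiquitin ligase parts and targets, Cdc20 rose by its representing probe set and Cdca3 was not called, while Ube2c reached the test only through its ATLO arrays. Ube2c, the ubiquitin-conjugating enzyme of the anaphase-promoting complex, had 105, 155, 152 and 178 in ATLO against 15.2, 81.0, 10.6 and 3.9 outside the lesion. Only outside-lesion 2 was above the floor, and the log2 change of 1.74 ± 0.38 (limma adjusted p = 0.00338, given as a description) is thus understated. Cdc20, which activates that complex, had 453, 680.0, 468 and 462 in ATLO against 37.7, 204, 212 and 185. Its groups were far apart and its log2 change was 1.95 ± 0.51 (limma adjusted p = 0.0101), but a second tested Cdc20 set changed by -0.11 and was not called, so Cdc20 is uncertain. Cdca3, a mitotic entry factor, had 218, 118, 103 and 169.7 in ATLO against 109, 71.9, 112 and 231. The highest Cdca3 array of all was outside-lesion 4, and the log2 change was 0.29 ± 0.35 (limma adjusted p = 0.568). A second tested Cdca3 set had 146, 235, 145.2 and 185.5 in ATLO against 15.3, 104, 115 and 144.9, with no overlap by a narrow margin, and its log2 change of 0.98 ± 0.42 was not called (limma adjusted p = 0.0935).

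Of 8 genes of the spindle and cytokinesis, 6 were tested, and 3 of the 4 that passed without the ATLO arrays rose. Nusap1, which bundles spindle microtubules and reached the test only through ATLO arrays, had 155, 270.3, 115 and 132 in ATLO against 50.1, 111, 77.5 and 53.4 outside the lesion. ATLO 3 lay barely above outside-lesion 2 for Nusap1, and the log2 change was 1.20 ± 0.38 (limma adjusted p = 0.0279). Stmn1 (stathmin), which destabilises microtubules and is also abundant in neurons, had 1059, 1245, 1406 and 1019 in ATLO against 297, 547, 562 and 757, a log2 change of 1.19 ± 0.31 (limma adjusted p = 0.00994). The highest Stmn1 array of all 11 was wild type 1 at 1866, where the summed signal of 8 neuron markers was 17931, against 463 to 6787 on the other arrays, and the part of nerve tissue in the Stmn1 values was not tested. Racgap1, needed for the cleavage furrow, had 108, 192, 161 and 122 in ATLO against 83.9, 55.2, 131 and 47.3. It was called (log2 change 0.96 ± 0.34, limma adjusted p = 0.046) although its arrays overlapped. Prc1, a midzone bundler, rose by 1.16 on the log2 scale. Tpx2, an activator of Aurora A that reached the test only through ATLO arrays, had a log2 change of 1.11, and Kif23, a cytokinesis motor, changed by 1.02 and was not called (limma adjusted p = 0.122). The motors Kif11 and Kif20a were not tested and overlapped between the groups.

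The 3 chromatin genes all passed without the ATLO arrays, rose and did not overlap. Mki67, the antigen of the Ki-67 proliferation stain, had 773, 1564, 768 and 590.3 in ATLO against 55.7, 217, 102 and 123 outside the lesion. Its lowest ATLO array was above its highest outside-lesion array by a wide margin, and it had the largest log2 change of the 30 tested genes, 2.96 ± 0.64 (limma adjusted p = 0.00318), a 7.76-fold rise. Top2a, the topoisomerase that untangles replicated chromosomes, had 477, 777, 473 and 463 in ATLO against 59.7, 281, 115 and 141, a log2 change of 2.06 ± 0.49 (limma adjusted p = 0.0062). For Top2a, 3 ATLO arrays were nearly equal and ATLO 2 stood above them. Cenpa, the histone variant of centromeres, had 321, 233, 256 and 293 in ATLO against 166, 174, 189.5 and 173, and its log2 change of 0.64 ± 0.21 (limma adjusted p = 0.0363) was the smallest among the called genes. The Cenpa arrays were tightly grouped on both sides.

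**Figure D3:**
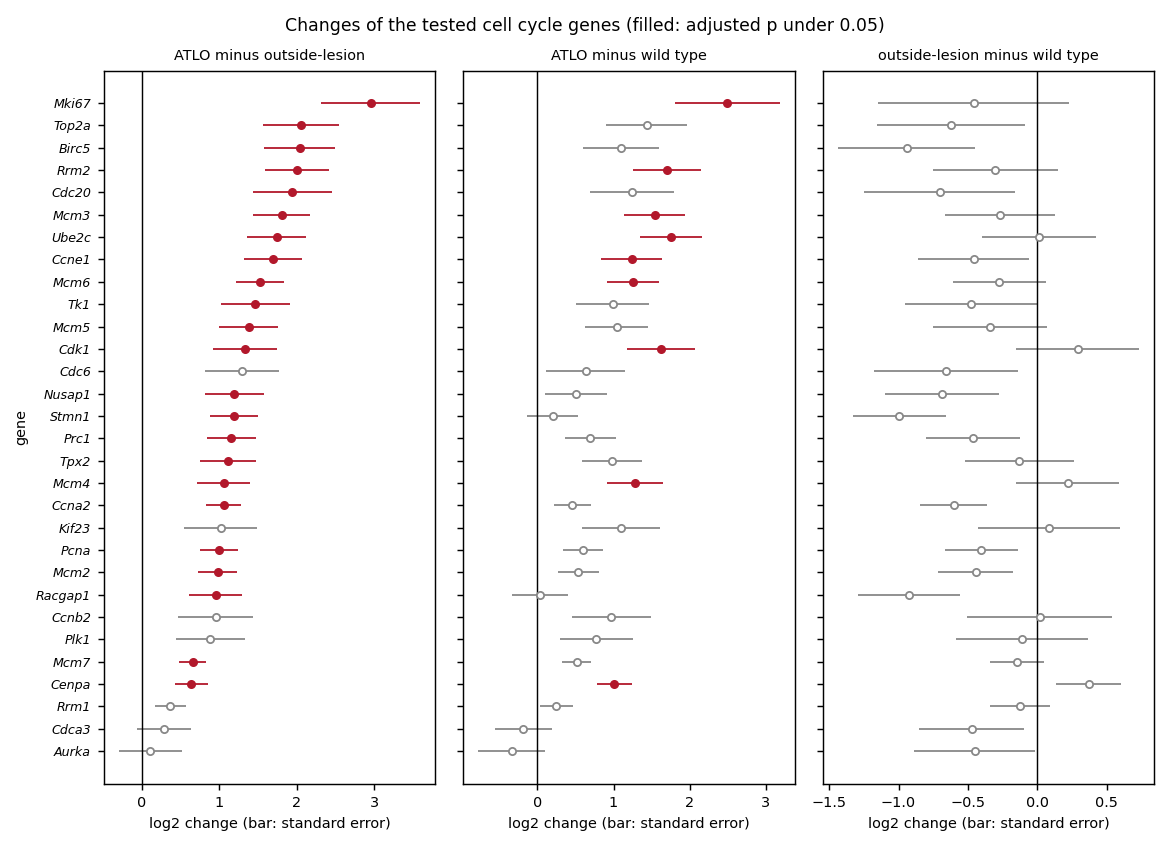
Log2 change of the 30 tested cell cycle genes in 3 comparisons (bars are standard errors, filled points have a limma adjusted p under 0.05), ordered by the change for ATLO minus outside-lesion. Of these, 23 points are filled for ATLO minus outside-lesion, 9 for ATLO minus wild type and 0 for outside-lesion minus wild type, and Aurka lies nearest to 0 in the first panel.

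The actin control of RNA integrity leaned with this comparison, and the same ratio of a Gapdh control did not. The Gapdh ratio was 1.78, 1.09, 3.18 and 1.69 on the ATLO arrays against 2.13, 1.27, 2.06 and 1.48 outside the lesion. The actin ratio was 4.99, 1.71, 8.14 and 3.58 on the ATLO arrays against 10.2, 6.22, 12.0 and 6.47 outside the lesion, and an exact two-sided permutation test of its log2 value gave p = 0.114 (the smallest possible p is 0.0286). The fit with that ratio as a covariate called 0 of 30 genes, and among all tested probe sets 8.61% were then called higher. The median log2 change of the 30 was 0.90. Without the covariate, an unadjusted limma p under 0.05 was seen in 24 of the 30, against 4014 of all 9045 tested genes. With the covariate it was seen in 18, for which no share over all genes was taken, so this count is only a description. The lowest adjusted p in that fit was 0.0581, for Ccna2, and Mki67 changed by 2.08 (limma adjusted p = 0.0846). Setting all array medians equal lowered the median log2 change of all tested probe sets by 0.12. It turned the share of higher among all calls to 44.1%, against 56.3% as deposited, with 1985 probe sets higher, against 2688. Of the 30 cell cycle genes 21 were called higher, with 30 of 30 above 0.

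Markers of several cell types moved the same way as the cell cycle genes. Higher in ATLO than outside the lesion were 6 of 6 tested B cell markers, 5 of 5 T cell, 5 of 6 plasma cell, 7 of 8 macrophage and 5 of 7 fibroblast markers. Lower were 5 of 6 adipocyte, 3 of 5 endothelial and 1 of 5 smooth muscle markers. Of 8 neuron and 2 erythroid markers 0 were called. Within a group the cell cycle genes followed the B cell markers on some arrays and not on others. ATLO 2, with a summed B cell signal of 16046 against 4481 to 9430 on the other ATLO arrays, was the highest ATLO array in 23 of the 30 tested cell cycle genes, as in 30.7% of all tested genes, and it also had the lowest actin ratio. ATLO 4 was second in summed B cell signal, at 9430, but had the lowest mean log2 signal of the 37 cell cycle genes in its group, 7.65 against 7.69 to 8.21. Outside the lesion, replicate 2 had the highest cell cycle mean, 6.92, while its B cell mean of 6.90 lay below the 7.59 and 7.67 of replicates 3 and 4. Among outside-lesion arrays, replicate 1 was the lowest in 14 of the 30 genes, as in 30.6% of all tested genes. Which cells carried the cell cycle RNA was not tested.

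**Figure D4:**
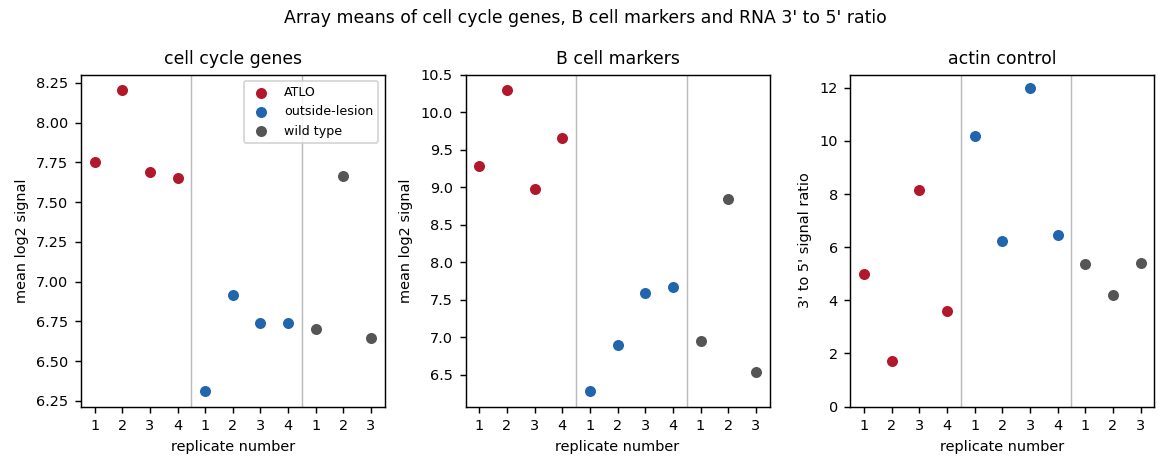
Mean log2 signal of the 37 measured cell cycle genes, mean log2 signal of the B cell markers, and 3′ to 5′ actin signal ratio, each point an array placed by group and replicate number. ATLO 2 and wild type 2 are the highest arrays of their groups in the first and the second panel, and have the lowest ratio of their groups in the third.

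Against wild type, ATLO adventitia had higher signals of some cell cycle genes by their representing probe sets, among them helicase subunits, Rrm2 and Mki67. Of the 19 genes that passed the filter without the ATLO arrays, 6 were higher and 0 lower, where 12.3% of all 8627 such genes were higher, and 6 had no overlap, as in 16.5% of those genes. Their median log2 change was 0.69, against -0.07. Over all 30 tested genes, 9 were higher and 0 lower, where 13.4% of all tested genes were higher and 14.1% lower. In 9 the arrays did not overlap, as in 17.6%. An unadjusted limma p under 0.05, in either direction, was seen in 16 of the 30, against 3654 of all 9045 tested genes. The median log2 change of the 30 was 0.99, against -0.05 for all tested genes. The called genes were Mki67, Rrm2, Cenpa and the helicase subunits Mcm3, Mcm4 and Mcm6, and, through their ATLO arrays only, Cdk1, Ccne1 and Ube2c. Further tested sets gave other answers. Those of Mcm4 and Mcm6 changed by 0.40 and 0.91, those of Rrm2 by 1.55 and 0.64, and none of these was called. Those of Mcm3 gave 0.36, 1.13 and 1.67, of which 1.67 was called. Of 45 tested probe sets of the cell cycle genes 10 were higher and 0 lower against wild type. Of all 14988 tested probe sets 2001 were higher. This comparison shares its ATLO arrays with the one before, so that the pair are not independent.

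The wild-type arrays were far apart in these genes. Mki67 read 84.2, 691 and 60.8 in wild type, so that wild type 2 lay within the ATLO range of 590.3 to 1564 and the other two below it. The log2 change of Mki67 for ATLO minus wild type was 2.50 ± 0.69 (n = 4 and 3, limma adjusted p = 0.0171), and 3.59 without wild type 2. Top2a read 112, 526 and 131 in wild type, and its log2 change of 1.43 ± 0.53 was not called (limma adjusted p = 0.0625), but 2.14 without wild type 2 was (limma adjusted p = 0.00764). Rrm2 read 123, 460.3 and 118 in wild type, with wild type 2 above ATLO 4, and was called at 1.70 ± 0.45 (limma adjusted p = 0.0138), or 2.35 without it. Cdk1 read 17.5, 161 and 51.8 in wild type and changed by 1.62 ± 0.45 (limma adjusted p = 0.0169), or 2.26 without wild type 2, which lay above ATLO 4. Wild type 2 thus lay within the range of the ATLO arrays in these 4 genes. Ube2c read 8.5, 64.3 and 22.0 in wild type, below all ATLO arrays, and changed by 1.75 ± 0.41 (limma adjusted p = 0.0074), or 2.05 without wild type 2. Mcm3 read 154, 286 and 139, below all ATLO arrays, and changed by 1.54 ± 0.40 (limma adjusted p = 0.0124), or 1.86 without wild type 2. Cenpa read 104, 191 and 126 and had the lowest limma adjusted p of the 30 genes, 0.00672, for a log2 change of 1.01 ± 0.23, or 1.26 without wild type 2.

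Wild type 2 was the highest wild-type array in 27 of the 30 tested cell cycle genes, as in 34.0% of all tested genes. Its median excess over the mean of the other two wild-type arrays was 0.98 on the log2 scale over the 30 genes, against 0.02 over all tested genes, and it was largest for Mki67, at 3.27. The B cell markers moved with it: their summed signal was 5642 on wild type 2, against 1005 and 714 on wild type 1 and 3, and Cd79b, part of the B cell receptor, read 1052 against 226 and 128. Its T cell sum was 1143, against 458 and 591. Whether lymphoid tissue entered that sample was not tested. Without wild type 2, 18 of 30 genes were higher in ATLO (10.9% of all tested probe sets), with a median log2 change of 1.37. Without wild type 1 the count was 3 of 30 (9.53% of all tested probe sets) and without wild type 3 it was 2 of 30 (9.59%), so that both were close to or below the share over all probe sets. With no filter 4 of 37 genes were higher (7.88% of all probe sets). With the actin ratio as a covariate 8 of the 30 were higher, where 1927 of all 14988 tested probe sets were. The median log2 change of the 30 was then 0.86.

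Outside-lesion adventitia of Apoe-deficient mice was not distinguished from wild type in any tested cell cycle gene. Of 30 tested genes 0 were higher and 0 lower by limma, where 1.40% of all tested genes were higher and 1.67% lower. An unadjusted limma p under 0.05 was seen in 3 (Ccna2, Racgap1 and Stmn1, all with negative log2 changes), against 1991 of all 9045 tested genes. The median log2 change was -0.42, against -0.12 for all tested genes, with 6 of 30 above 0. Without wild type 2 the median was 0.04, so that the negative median rested on that array. Mki67 read 55.7, 217, 102 and 123 outside the lesion against 84.2, 691 and 60.8 in wild type, a log2 change of -0.46 ± 0.69 (limma adjusted p = 0.722), and without wild type 2 it was 0.63. Ccna2 was the 1 gene of 30 whose arrays did not overlap, with 109.9 to 139 outside the lesion and 159 to 269.5 in wild type, as in 13.4% of all tested genes in that direction. The standard error of 0.69 on the log2 scale for Mki67 means that a change of its size could not be detected with these arrays.

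Genes of the cell cycle outside the 40 were taken from 3 further lists. Of 21 tested genes of DNA replication, 7 were higher in ATLO than outside the lesion and 0 lower, with a median log2 change of 0.57, against 19.8%, 14.9% and 0.10 for all tested genes. Of the 18 that passed without the ATLO arrays 5 were higher, with a median of 0.52, against 18.3% and 0.08. Uhrf1, which carries DNA methylation through replication and reached the test only through ATLO arrays, read 187, 446, 163 and 213 in ATLO against 81.0, 69.6, 81.7 and 51.7, and changed by 1.73 (limma adjusted p = 0.0239). Cdt1, which loads the helicase with Cdc6, read 711 to 1158 in ATLO and 252 to 466 outside the lesion, and changed by 1.30 (limma adjusted p = 0.00125). Of 20 tested genes of mitosis, 9 were higher and 1 lower, with a median of 0.87, and of the 14 that passed without the ATLO arrays 6 were higher, with a median of 0.71. Cenpf, a kinetochore protein that reached the test only through ATLO arrays, read 127 to 205 in ATLO and 6.9 to 56.1 outside the lesion and changed by 1.94, and Kif22, a chromosome motor, by 1.66. The 1 lower gene was Pttg1 (securin), named after its values were seen, which read 2996 to 4179 in ATLO and 5466 to 8012 outside the lesion and fell by 0.99 on the log2 scale.

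G1 cyclins, kinases and cell cycle inhibitors were called at shares near those of all genes. Of 19 tested genes 5 were higher and 3 lower in ATLO than outside the lesion (19.8% and 14.9% of all tested genes), with a median log2 change of 0.13, against 0.10. Rbl1 (p107), a partner of E2F, read 298 to 457 in ATLO and 145 to 208 outside the lesion and changed by 1.13 (limma adjusted p = 0.0015). Cdkn2b (p15), an inhibitor of Cdk4 and Cdk6, read 52.8 to 100.4 in ATLO and 219 to 294.5 outside the lesion and fell by 1.56 on the log2 scale (limma adjusted p = 0.000389). Cdkn2c (p18), an inhibitor of the same kinases named after its values were seen, fell by 1.07. The other inhibitors of the list are not given here, so no direction of inhibitors is read from this pair. Against wild type, 3 of 21 DNA replication genes were higher in ATLO and 0 lower, 4 of 20 mitosis genes higher and 2 lower, and 3 of 19 G1 genes each way, beside 13.4% of all tested genes higher and 14.1% lower. Between outside-lesion and wild type the counts of higher and lower genes were 0 and 0, 0 and 1 (Cenpf), and 1 and 2. Without ATLO 2 the genes called over the 3 lists were 15, against 25 with it, for ATLO minus outside-lesion. Calls over all 14988 tested probe sets were then 4003, against 4777. For ATLO minus wild type the list genes called were 9 without ATLO 2, wild type 1 or wild type 3, against 15. Calls over all tested probe sets were then 3428, 2740 and 2786, against 4012. For outside-lesion minus wild type the list genes called were between 0 and 6 with 1 array left out, against 4. Calls over all tested probe sets ranged there from 21 to 886, against 489.

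**Figure D5:**
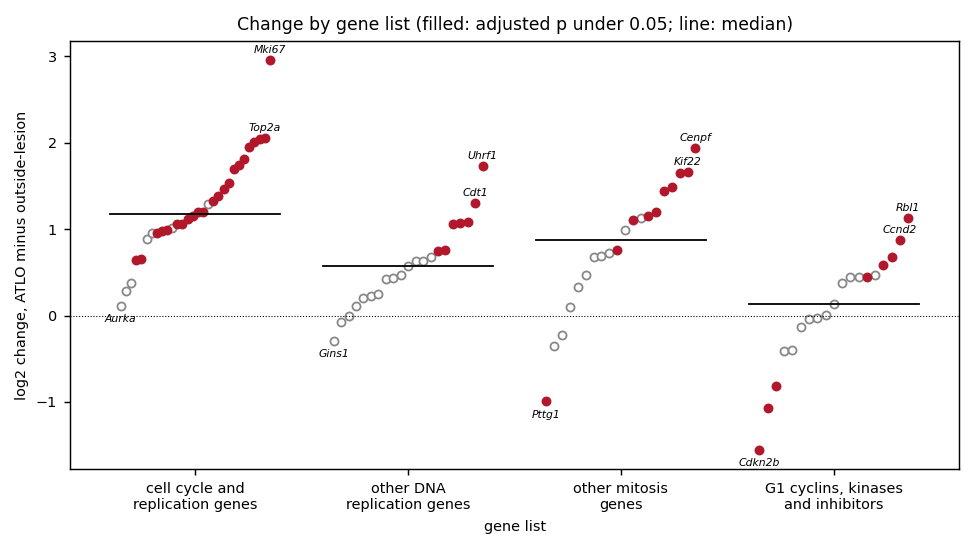
Log2 change for ATLO minus outside-lesion of the tested genes of 4 lists; each point is a gene, filled where the limma adjusted p is under 0.05, horizontal lines are list medians, and the lowest and the 2 highest genes of each list are named. The median lies at 1.17 for the cell cycle and replication genes, 0.57 for other DNA replication genes, 0.87 for other mitosis genes and 0.13 for G1 cyclins, kinases and inhibitors.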

How the data were processed

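Expression was measured on 11 Affymetrix arrays, 4 of ATLO adventitia, 4 of outside-lesion adventitia and 3 of wild-type adventitia. The authors deposited 1 linear intensity per probe set and array, made with GCOS 1.4, per the submitters' processing notes. The summary method and scaling target are not given in the sources used here; the deposited intensities had a 2% trimmed mean near 500 on every array (500.2 on average), which shows a common scaling before deposit. Intensities carry no counts, and precision is limited by how many arrays each group has.

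Of 22690 probe sets, 64 controls were left out. Names came from the platform annotation, in which 20380 of 22626 had 1 symbol, 691 several and 1555 none; only those with 1 symbol were named. Values under 35.1 (20th percentile over the table) were set to that floor before the log2 step, so changes near the floor are understated. Testing required a signal above the array's 40th percentile on 3 or more arrays, which 14988 sets met. With limma 3.58.1 (R 4.3.3) 1 model held the 3 group means over the 11 arrays, the variance prior followed intensity, and Benjamini-Hochberg adjustment ran over every tested set (threshold 0.05). The set with the highest mean log2 value over all arrays represented a gene. Errors are standard errors. The fit was tested on simulated data.

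The 40 genes, the other lists and the tests were chosen with earlier results of these data known. Values by array are given for Mki67, Top2a, Pcna, Cdk1, the genes with the largest and smallest changes of each role group, and Ube2c; of each other cell cycle list the 2 called genes with the largest change for ATLO minus outside-lesion are named. Alternatives were quantile normalization, equal array medians, floors at the 10th and 30th percentile, no filter, a stricter filter, the 2 compared groups alone, a block for replicate number, array weights, no trend, the actin ratio as covariate, probe sets averaged per gene, and each array left out in turn.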

Additional observations from a re-analysis of the deposited data

Results flagged for a closer look

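In groups of 4 arrays, a single array stood apart from the other 3 by Dixon's criterion in 7 of the 76 groups examined. The criterion was applied to floored log2 values. A group with 3 arrays at the floor and 1 above it is flagged whatever its spread. The chance rate of about 1 in 20 does not hold for such groups, so the count of 7 is not read against it. In ATLO adventitia the array was ATLO 2 both times: Top2a read 777.4 there, against 463 to 477 on the other ATLO arrays, and Cdc20 read 680.0, against 453 to 468. In outside-lesion adventitia, replicate 1 was low for Cdc20, at 37.7 against 185 to 212, and for Mcm4, at 224.5 against 503 to 572. Outside-lesion 2 was high for Cdc6 (38.1 against 1.6 to 13.0), for Bub1b (68.0 against 12.4 to 17.5) and for Ube2c (81.0 against 3.9 to 15.2). In these 3 genes the other outside-lesion arrays were under the floor of 35.1. Only 1 array thus had a measured value, and the floor made the flag. ATLO 2 and outside-lesion 2 were also the highest of their groups in 23 and 16 of the 30 tested cell cycle genes, and outside-lesion 1 the lowest in 14.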

How the results depend on the processing

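For ATLO minus outside-lesion, 0 cell cycle genes were called lower under any alternative. The 23 of 30 called higher became 14 of 16 tested with at least 4 arrays above their own median (fewer genes tested). With the actin ratio as covariate 0 were called (the cause was not tested), and leaving out 1 array gave 17 to 23. Higher calls over all tested probe sets were 2688 in the main fit. They were 2465 of 12143 with at least 4 arrays above their own median and 1290 with the actin ratio. With 1 array left out they were 2187 to 2655. For ATLO minus wild type, the 9 cell cycle genes called higher became 4 with no filter, 8 with the actin ratio as covariate, and 2 to 18 with 1 array left out. For outside-lesion minus wild type the count was 0 throughout. Calls over the 3 other cell cycle lists for ATLO minus outside-lesion were 25, 8 with the actin ratio and 15 to 26 with 1 array left out, and for ATLO minus wild type 15, and 9 to 17 with 1 array left out. For outside-lesion minus wild type they were 4, and 1 with equal medians, with only the 2 groups, with the replicate block or with the actin ratio, 2 with no filter or no intensity trend, 7 with array weights, 0 with probe sets averaged, and 0 to 6 with 1 array left out. Directions turned for Aurka (ATLO minus outside-lesion -0.11 with the floor at the 30th percentile, -0.25 with array weights and -0.25 with the actin ratio, and -0.29 to 0.33 with 1 array left out), Rrm1 (ATLO minus wild type -0.11 with probe sets averaged), Stmn1 (ATLO minus wild type -0.035 to 0.63 with 1 array left out), Racgap1 (ATLO minus wild type -0.059 with array weights, -0.13 to 0.19 with 1 array left out), Mki67 (outside-lesion minus wild type 0.16 with the actin ratio, -1.12 to 0.63 with 1 array left out) and Top2a (outside-lesion minus wild type -1.03 to 0.083 with 1 array left out). Equal array medians moved the median log2 change of all tested probe sets by -0.12 for ATLO minus outside-lesion and by 0.17 for outside-lesion minus wild type, and the share of higher among all calls to 87.3% for the second, against 52.8%. Whether the replicate numbers pair the arrays is not settled. Between ATLO and outside-lesion arrays, same-numbered deviations correlated at 0.04 to 0.15, and differently numbered ones at -0.20 to 0.15. With the wild-type arrays included, correlations of same-numbered deviations lay between -0.18 and 0.27. With the replicate block 22 cell cycle genes were higher for ATLO minus outside-lesion, 12 for ATLO minus wild type and 0 for outside-lesion minus wild type. Higher calls over all 14988 tested probe sets were then 2697, 1904 and 113. The floor limits Cdc6, Bub1 and Ube2c, whose outside-lesion signals mostly lay under it.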
